A study of Mus musculus with 4 samples.

Results

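Bai1, Lphn2, Odz4, Fam65b, Cp110 and Mll3 are 6 genes of the developing mouse cortex that the study placed in its gene ontology clusters of transcripts with altered splicing after loss of the RNA-binding protein Quaking, and that the deposited files hold under older symbols or by gene ID alone. They were taken by gene ID and are 6 of the 23038 genes in the files, with 47 of the 38240 alternative splicing events. The present RefSeq symbols are Adgrb1 for Bai1 (gene ID 107831), Adgrl2 for Lphn2 (99633), Tenm4 for Odz4 (23966), Ripor2 for Fam65b (193385), Ccp110 for Cp110 (101565) and Kmt2c for Mll3 (231051). The files list gene ID 101565 under the symbol 6330503K22Rik, so that no row bears the symbol Cp110. The study's list was chosen by the splicing differences of these same embryos, that is by called events with a difference of inclusion over 0.1 and an RPKM over 1, so the splicing values of the 6 genes are given as a description. Which events passed the test is stated, but no p-value is given and nothing is supported with it. By contrast, the steady-state levels, a different measure, were tested.

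Polyadenylated RNA of the cortex at E14.5 of embryonic development was sequenced as paired reads from 2 control embryos and 2 Qk cKO embryos. Controls were Qk fl/fl embryos, called wild type in the sample labels, and Qk cKO embryos were their Nestin-Cre:Qk fl/fl littermates, so that both groups carry the floxed Qk alleles and differ in Cre. The Nestin promoter drives Cre in neural progenitor cells, where exon 2 of Qk is removed. Cells outside the neural lineage, such as blood vessels and meninges, keep Qk. The labels do not say which embryos share a litter, and p-values of gene levels measure the spread between these 2 samples per group.

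The 6 proteins act at the cell surface, in the cytoplasm and in the nucleus. Bai1 and Lphn2 are adhesion G protein-coupled receptors, which have a long extracellular part that is cut from the membrane-spanning part within a conserved autoproteolysis domain. Lphn2 is a latrophilin, and latrophilins on one cell bind teneurins such as Odz4 on the neighbouring cell, a contact that takes part in synapse formation. Bai1 also acts in the uptake of apoptotic cells. Fam65b binds the small GTPase RhoA and limits its activity, Cp110 caps the distal end of the mother centriole until a cilium is built, and Mll3 is a histone methyltransferase that marks enhancers at lysine 4 of histone H3. Quaking binds ACUAAC and the shorter UAAC in pre-mRNA, and the side of an exon on which it binds is known to influence whether the exon is spliced in.

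Inclusion is the share of the junction tags of an event that support the isoform with the exon, corrected for the number of junctions of each isoform, and runs from 0 to 1. A tag is the unit that the quantification program Quantas counts. Coverage is the smallest sum of an event's junction tags over a group or an isoform, and events with a coverage of at least 20 were tested. An event was called at a p-value below 0.01 and an FDR below 0.1 in Fisher's exact test on tags summed over replicates, which leaves out the variation between embryos. The leading event of a gene is its called event with the largest difference of inclusion between the groups, or the tested event with the largest difference where none was called.

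The exons on which the results turn are printed 5′ to 3′ on the strand of the gene in mm10, so that each can be read beside its inclusion. Capitals mark TAAC, the DNA spelling of UAAC, and ACTAAC where the longer motif is present.
Lphn2 exon of 129 nt (chr3:148821280-148821408, minus strand): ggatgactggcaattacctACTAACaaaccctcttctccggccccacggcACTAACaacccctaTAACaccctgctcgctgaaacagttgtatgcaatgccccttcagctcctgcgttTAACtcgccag
Lphn2 exon of 18 nt (chr3:148820451-148820468, minus strand): caacctacagagagacaa
Bai1 exon of 99 nt (chr15:74577395-74577493, plus strand): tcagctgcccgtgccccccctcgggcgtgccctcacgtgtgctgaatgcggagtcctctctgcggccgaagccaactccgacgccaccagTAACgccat
Fam65b exon of 126 nt (chr13:24696471-24696596, plus strand): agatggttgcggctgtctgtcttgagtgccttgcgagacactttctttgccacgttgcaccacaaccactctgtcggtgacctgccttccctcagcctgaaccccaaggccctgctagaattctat
Mll3 exon of 105 nt (chr5:25330796-25330900, minus strand): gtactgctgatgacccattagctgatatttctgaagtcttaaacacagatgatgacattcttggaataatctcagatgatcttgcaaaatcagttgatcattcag
Cp110 exon of 86 nt (chr7:118732887-118732972, plus strand): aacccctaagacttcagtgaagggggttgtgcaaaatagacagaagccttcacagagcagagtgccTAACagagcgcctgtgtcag

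The 129 nt exon of Lphn2 holds 4 copies of TAAC, and 2 of these are part of ACTAAC. Of 1388 tested cassette exons of 80 to 130 nt with an annotated sequence, 15 (1.08%) held ACTAAC on the strand of the gene and 270 (19.5%) held TAAC. The Lphn2 exon is one of 2 exons with at least 2 copies of ACTAAC among them, and no other had 4 copies of TAAC. The exons of Bai1 and Cp110 each hold 1 copy of TAAC, and those of Fam65b and Mll3 hold none. A match is a description of the sequence, not a binding site. The introns beside these exons were not analysed here.

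Of the 47 events of the 6 genes, 32 were tested and 8 were called, beside 7.50% of the 11500 events tested in all. With a difference of inclusion of at least 0.1, 6 events in 5 genes remained, beside 3.30% of all tested events. Of these 6 events 5 had higher inclusion in Qk cKO, that is 5 of the 32 tested events, beside 1.70% of all tested events. Over all genes, 195 of the 380 events called with a difference of at least 0.1 had higher inclusion in Qk cKO. The interaction test of edgeR, which takes the variation between embryos into account, called 3 of the 32 events, beside 0.557% of all, and these were the 126 nt exon of Fam65b, the 129 nt exon of Lphn2 and the Lphn2 tandem that contains it. Since such calls chose the genes, nothing is read from these shares. Inclusion was higher in Qk cKO in the leading events of Lphn2, Fam65b, Odz4 and Bai1 and lower in that of Mll3, and the only event of Cp110 was not called. In the 5 leading events that were called, neither Qk cKO embryo lay within the range of the controls. Of the 32 tested events, 19 had groups that did not overlap, beside 37.9% of all tested events.

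**Figure D1:**
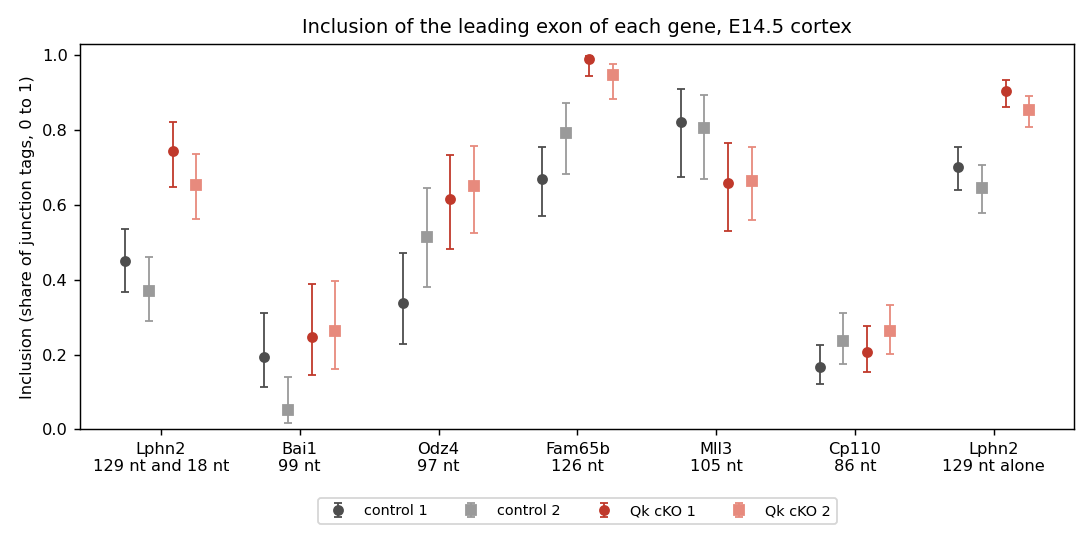
Inclusion (y axis, share of junction tags) of the leading event of each gene in the 2 control and 2 Qk cKO samples, with the 129 nt exon of Lphn2 alone at the right. Points are single samples and bars are 95% Wilson intervals, which cover counting error only. The groups are apart in every event except that of Cp110.

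The difference in Lphn2 lay at an exon of 129 nt. It is exon 22 of 23 in the transcript Adgrl2-202, lies after 80.3% of the coding sequence and adds 43 codons without a stop. Its inclusion was 0.700 and 0.644 in control 1 and 2 and 0.904 and 0.855 in Qk cKO 1 and 2. Both Qk cKO values lay above both controls, and the difference of 0.204 from the summed tags exceeded the difference within either group, 0.057 in control and 0.049 in Qk cKO. The junction that skips the exon had 73 and 75 tags in the controls and 24 and 38.7 tags in the Qk cKO embryos. The junction into the exon had 160.3 and 125.4 tags in the controls and 199.5 and 213.7 in the Qk cKO embryos, and the junction out of it had 181 and 145.8 in the controls and 251.9 and 242.5 in the Qk cKO embryos. Tags on both sides of the exon were thus higher, and tags that skip it lower, in both Qk cKO embryos.

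The leading event of Lphn2 by the rule was the tandem of the 129 nt exon and an 18 nt exon behind it. Its inclusion was 0.450 and 0.371 in the controls and 0.744 and 0.654 in the Qk cKO embryos, with a coverage of 210.7 tags. The difference was 0.283 from junction tags and 0.110 with all isoform tags, which include those within the exons. The inclusion value rests on the tags into the 129 nt exon, which it shares with the event above. The junction between the 129 nt and 18 nt exons had 14 and 5.04 tags in the controls and 9.02 and 6.03 in the Qk cKO embryos. The junction from the 18 nt exon onwards had 5 and 2.04 tags in the controls and 1.02 and 0.026 in the Qk cKO embryos. Taken as an event of its own, the 18 nt exon had an inclusion of 0.050 and 0.024 in the controls and 0.020 and 0.012 in the Qk cKO embryos and was not called. The 18 nt exon was therefore rare in every sample, and the difference lies in the 129 nt exon.

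**Figure D2:**
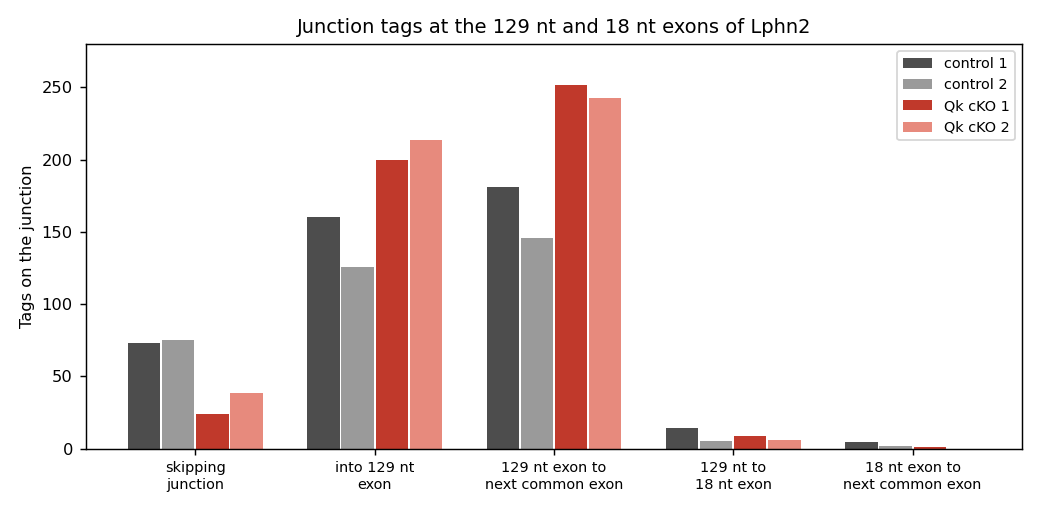
Tags (y axis) on 5 junctions at the 129 nt and 18 nt exons of Lphn2, with 1 bar per sample. The skipping junction is lower and both junctions of the 129 nt exon are higher in the 2 Qk cKO samples, while the junctions of the 18 nt exon hold at most 14 tags.

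A further pair of called Lphn2 events did not separate the groups. An 82 nt exon in the same interval had an inclusion of 0.110 and 0.080 in the controls and 0.040 and 0.215 in the Qk cKO embryos. A 53 nt form of it, which begins further downstream, had 0.161 and 0.085 in the controls and 0.020 and 0.181 in the Qk cKO embryos. In both, Qk cKO 1 was the lowest and Qk cKO 2 the highest of the 4 samples. In Qk cKO 1 the 82 nt exon rests on 2 inclusion tags and the 53 nt form on 1. Both share their downstream junction, with 18 and 10 tags in the controls and 1 and 17.1 in the Qk cKO embryos. Both also use the skipping junction of the 129 nt exon as their alternative, so that the same 73, 75, 24 and 38.7 tags enter all of these events. Neither was called with junction tags alone, by edgeR's interaction test, or without control 2 or Qk cKO 2. The other 11 tested events of Lphn2 were not called. Among them a 39 nt exon, exon 8 of 23, had the highest coverage of the 32 events, 574.2 tags, with an inclusion of 0.268 and 0.239 in the controls and 0.306 and 0.315 in the Qk cKO embryos.

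Bai1, the other adhesion receptor, had 3 tested events. Its leading exon, of 99 nt, is annotated only in Adgrb1-208, a processed transcript without a coding sequence. Read in the frame of the coding transcript Adgrb1-201, it holds no stop codon. Its inclusion was 0.193 and 0.052 in the controls and 0.248 and 0.262 in the Qk cKO embryos. Both Qk cKO values were above both controls, but the controls differed by 0.141 from each other, more than the 0.132 between the groups. The junction tags of inclusion were 23 and 6.16 in the controls and 22.4 and 27 in the Qk cKO embryos, so that control 2 stood apart and control 1 did not. The difference between the groups was 0.062 without control 2 and 0.203 without control 1. The call was kept in 4 of 10 alternatives and was lost without control 2, without either Qk cKO sample, with a coverage minimum of 10, with adjustment over all event types and by edgeR's interaction test.

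Odz4, a teneurin and so a partner of latrophilins, had 5 tested cassette exons. The 97 nt exon with the leading event (chr7:96496244-96496340, plus strand) is exon 4 of 33 in Tenm4-201 and lies upstream of the coding part of that transcript. In Tenm4-202, where coding begins before this place with 10 bases, the exon would bring a stop codon at its base 69. Its inclusion was 0.339 and 0.515 in the controls and 0.615 and 0.650 in the Qk cKO embryos. The controls differed by 0.175, the Qk cKO samples by 0.035, and the groups by 0.209. Inclusion junction tags were 36.9 and 53 in the controls and 67 and 78 in the Qk cKO embryos, against 36 and 25 skipping tags in the controls and 21 and 21 in the Qk cKO embryos. The difference was 0.119 without control 1 and 0.294 without control 2, and the call was lost without control 1, without Qk cKO 2 and by edgeR's interaction test. The coding exons of Odz4 were not called. Its 27 nt exon had 0.345 and 0.246 in the controls and 0.230 and 0.129 in the Qk cKO embryos, and its 21 nt exon had 0.615 and 0.699 in the controls and 0.687 and 0.650 in the Qk cKO embryos.

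Fam65b had a single tested event, its 126 nt exon, which is exon 13 of 15 in Ripor2-201 and adds 42 codons without a stop after 57.1% of the coding sequence. Its inclusion was 0.668 and 0.792 in the controls and 0.991 and 0.948 in the Qk cKO embryos. The exon was thus near complete inclusion in both Qk cKO embryos, and the groups did not overlap. Tags that skip the exon numbered 31.99 and 14.2 in the controls and 0.866 and 4.99 in the Qk cKO embryos. Inclusion tags were 129 and 108.5 in the controls and 186.3 and 182.3 in the Qk cKO embryos. The difference of 0.249 exceeded those within the groups, 0.124 in control and 0.043 in Qk cKO, and it was 0.177 without control 1. The coverage of 52.1 tags was the lowest of the called events in these genes.

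Mll3 had the only leading event with lower inclusion in Qk cKO. Its 105 nt exon, exon 28 of 59 in Kmt2c-201, adds 35 codons without a stop after 28.8% of the coding sequence. Inclusion was 0.821 and 0.804 in the controls and 0.658 and 0.664 in the Qk cKO embryos. The samples of each group lay close together, with differences of 0.016 in control and 0.006 in Qk cKO, and the groups differed by 0.150. The skipping tags were few, 7 and 9 in control against 20.3 and 28.7 in Qk cKO, and the Wilson intervals of single samples overlapped between the groups. The interval was 0.673 to 0.910 in control 1 and 0.531 to 0.766 in Qk cKO 1. The call was lost with junction tags alone, without control 1, without Qk cKO 2 and by edgeR's interaction test. A 213 nt exon of Mll3, exon 44, was not called, with 0.654 and 0.675 in the controls and 0.723 and 0.690 in the Qk cKO embryos. Nearly all of its inclusion tags lay on the upstream junction. The downstream junction had 0 and 0.004 tags in the controls and 0 and 0.722 in the Qk cKO embryos.

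Cp110 had 1 event, an 86 nt exon that is exon 13 of 14 in Ccp110-201. Its inclusion was 0.166 and 0.236 in the controls and 0.207 and 0.262 in the Qk cKO embryos. The groups overlapped, and the difference of 0.039 was smaller than that within control, 0.070, or within Qk cKO, 0.054. The coverage of 290.3 tags was above that of every leading event of the other 5 genes. The event was not called by Fisher's exact test or in any of 10 alternatives. Gene ID 101565 therefore holds no called event in these files.

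The name of this gene touches that of another. RefSeq gives cep110 as a synonym of Ccp110, and Cep110 as a synonym of Cntrl (gene ID 26920), which encodes the centrosomal protein centriolin and stands in the files as Cep110. Cep110 was looked up after these values were seen. A 144 nt exon of it (chr2:35132969-35133112, plus strand), exon 2 of 5 in Cntrl-211 and not coding there, was called at a coverage of 20 tags, the minimum. Its inclusion was 0.429 and 0.667 in the controls and 0.282 and 0.216 in the Qk cKO embryos, from 4, 2, 14 and 19.6 skipping tags. Nearly all of its inclusion tags lay on the downstream junction, with 0, 1, 0 and 0.412 tags on the upstream junction in the same order of samples. The call was kept in 4 of 10 alternatives and was lost without control 1, without control 2, without Qk cKO 2, with junction tags alone, with a coverage minimum of 50 and by edgeR's interaction test. In its gene ontology clusters the study prints the symbol Ccp110, which RefSeq gives to gene ID 101565. Its supplementary list of splicing events holds gene ID 26920 as Cep110 and has no row of gene ID 101565. Whether the ontology entry stands for gene ID 101565 or 26920 was not tested.

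**Figure D3:**
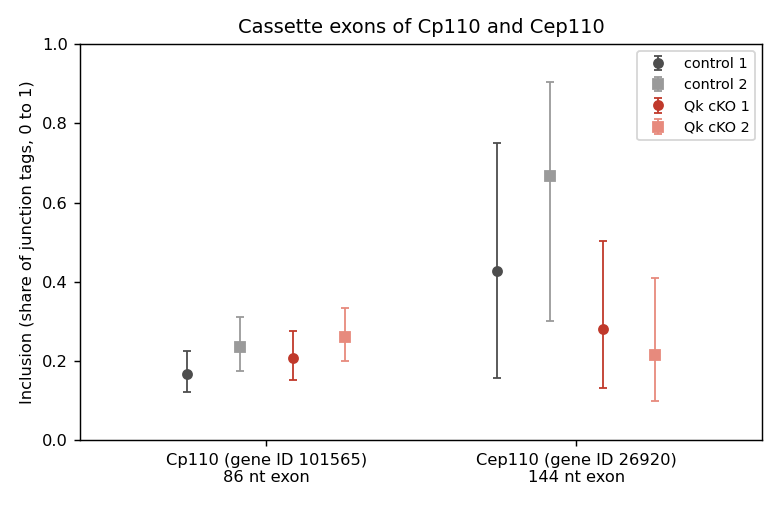
Inclusion (y axis, share of junction tags) of the 86 nt exon of gene ID 101565 and of the 144 nt exon of gene ID 26920 in the 4 samples. Points are single samples and bars are 95% Wilson intervals for counting error only. The groups overlap in the first exon and do not in the second, where 2 to 19.6 skipping tags per sample leave wide intervals.

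The limits that chose the genes cut close to several events. Just inside them were the Bai1 exon, with a difference of 0.132, and the Mll3 exon, with 0.150. Events with a difference past 0.1 that were not called include the 82 nt exon of Lphn2 set against its 53 nt form. The share of the 82 nt form was 0.136 higher in Qk cKO at a coverage of 41.3 tags. In Qk cKO 1 it rests on 2 tags of the 82 nt form and 1 tag of the 53 nt form. The 27 nt exon of Odz4 had an inclusion 0.112 lower in Qk cKO at 113.5 tags. An alternative 3′ splice site of Bai1 had 0.889 and 0.933 in the controls and 0.787 and 0.826 in the Qk cKO embryos at 27.2 tags. Its more used junction is the one that skips the 99 nt exon, with the same 48, 55.9, 34.1 and 38.0 tags. That splice site event thus shares tags with the leading event of Bai1. Over the 32 tested events the median size of the difference was 0.042, beside 0.026 over all tested events.

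**Figure D4:**
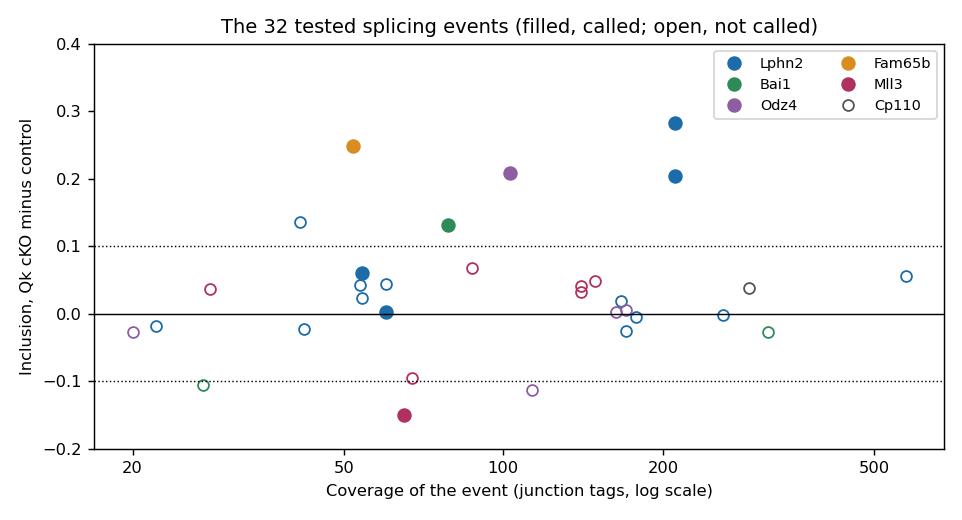
Difference of inclusion between Qk cKO and control (y axis, from summed tags) against coverage (x axis, junction tags on a log scale) for the 32 tested events. Filled points are called events, open points are not, and dotted lines mark a difference of 0.1 in either direction. Called events reach from -0.150 in Mll3 to 0.283 in Lphn2, and 3 open points lie beyond the dotted lines.

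The 129 nt and 18 nt exons of Lphn2 and those of Bai1, Fam65b and Mll3 are multiples of 3, so that they keep the reading frame. The 97 nt exon of Odz4 and the 86 nt exon of Cp110 are not. Of the 17 tested cassette exons of the 6 genes, 13 (76.5%) are multiples of 3, beside 52.9% of the 4600 tested cassette exons. Among the 223 called cassette exons with a difference of at least 0.1 in all genes, the share was 73.5%. No exon of these events overlaps an exon of another annotated gene in GENCODE. The library kit does not mark strand, and Lphn2, Odz4 and Mll3 each have 1 annotated gene on the opposite strand that overlaps their exons elsewhere, so tags there cannot be told apart. Bai1 has such a gene on its own strand, also outside these exons.

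For each leading event the tested events of the same type in other genes with the most similar inclusion over the 4 samples were looked up, by the root mean square difference at a coverage of at least 50. For Lphn2, among 460 tandem events, these were in Anks1b (0.054) and Etl4 (0.087). For Bai1, among 2619 cassette exons, they were in Rer1 (0.046) and Gyg (0.049). For Odz4 they were in Cpeb4 (0.045) and Aftph (0.048), and for Fam65b in Nrcam (0.052) and Afap1 (0.058). For Mll3 they were in Flot2 (0.033) and Rims2 (0.036). Of these 10 events, those of Etl4, Rer1, Aftph, Nrcam and Afap1 were called, beside 7.50% of all tested events. Likeness to a called event in the same samples favours called events, so nothing is read from this count. For Cp110 they were in BC068281 (0.021) and Nfib (0.024), neither called.

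Gene levels were tested in edgeR (quasi-likelihood) over 18834 genes. None of the 6 passed the limits, a p-value below 0.01 and an FDR below 0.1, where 0.584% of all genes did. At an unadjusted p-value below 0.05 stood 2 of the 6, Bai1 and Mll3, beside 8.76% of all genes, and DESeq2 and edgeR's exact test also called 0 of the 6. In bulk cortex, fewer cells that express a gene and less RNA per cell cannot be told apart. RPKM is the number of tags scaled to the exon length of the gene and to the size of the library, so that levels can be set beside each other between genes.

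Lphn2 had the highest level of the 6, with an RPKM of 29.0 and 28.3 in the controls and 27.6 and 30.6 in the Qk cKO embryos. The groups overlapped, and the log2 fold change of Qk cKO over control was 0.04 (standard error 0.064, FDR 0.910 by edgeR). Bai1 had an RPKM of 19.0 and 21.05 in the controls and 17.1 and 18.3 in the Qk cKO embryos. Both Qk cKO embryos were below both controls, with a log2 fold change of -0.17 ± 0.059 (SE, FDR 0.335 by edgeR), and without control 2 it was -0.10. Odz4 had an RPKM of 16.8 and 17.4 in the controls and 16.2 and 17.6 in the Qk cKO embryos, and its log2 fold change was -0.002 ± 0.065 (SE, FDR 0.996 by edgeR).

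Fam65b had the lowest level, with an RPKM of 9.61 and 9.23 in the controls and 9.94 and 10.1 in the Qk cKO embryos. The groups did not overlap, at a log2 fold change of 0.10 ± 0.070 (SE, FDR 0.767 by edgeR). Cp110 had 18.3 and 18.5 in the controls and 18.2 and 18.6 in the Qk cKO embryos, a log2 fold change of 0.01 ± 0.052 (SE, FDR 0.960 by edgeR). Mll3 had 15.3 and 16.7 in the controls and 17.5 and 18.4 in the Qk cKO embryos. Both Qk cKO embryos were above both controls, with a log2 fold change of 0.18 ± 0.073 (SE, FDR 0.439 by edgeR). The groups of Bai1, Fam65b and Mll3 thus did not overlap in RPKM, beside 36.9% of all genes tested. In the order of their mean levels, Bai1 and Cp110 overlapped over the 4 samples, as did Odz4 and Mll3, whereas every value of Cp110 was above every value of Odz4. Lphn2 lay above and Fam65b below the other four genes in every sample.

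**Figure D5:**
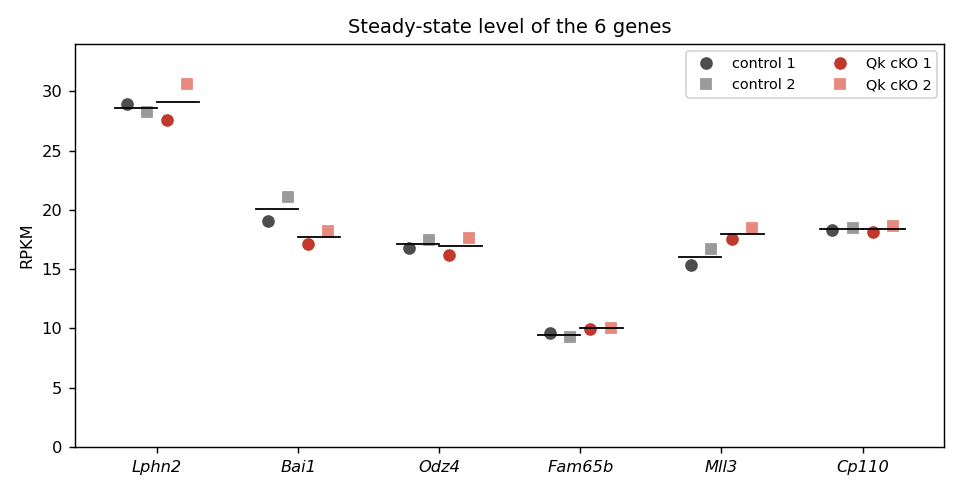
RPKM (y axis) of the 6 genes in the 4 samples, with lines at the group means. Every value lies between 9.23 and 30.6, and the groups of Bai1, Fam65b and Mll3 do not overlap, although no gene was called by edgeR.

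The labels were checked on Qk itself and the cell types on marker genes. Per 100 tags on the junction of Qk exons 3 and 4, there were 110.6 and 128.6 tags on the junction of exons 2 and 3 in the controls and 7.02 and 8.19 in the Qk cKO embryos. The RPKM of the whole Qk gene was higher in Qk cKO, with 21.1 and 21.7 in the controls and 32.5 and 34.2 in the Qk cKO embryos. The cause of that rise was not tested. Libraries held 37942046 to 42994832 tags on genes. Both samples numbered 1 had an Xist RPKM of 57.1 or 64.5 and both numbered 2 had 0.026 or less, so that each group held 1 sample with and 1 without Xist, while the 6 genes lie on autosomes. Of 7 radial glia markers, Fabp7 and Slc1a3 were called lower in Qk cKO (log2 fold change -0.45 and -0.23, FDR 0.0153 and 0.0887 by edgeR). The list's summed RPKM was 1502 to 1622 in control and 1255 to 1318 in Qk cKO. Fabp7 alone made up most of that sum, with 988.9 and 900.9 in the controls and 702.7 and 666.6 in the Qk cKO embryos. No other marker of this list was called, so the sum does not describe the list as a set. Of 6 markers of hypothalamus and diencephalon, tissues next to the cortex, 5 were called lower, and 4 of the 6 were below an RPKM of 1 in every sample. The summed RPKM, which includes the uncalled Nkx2-1, was 8.79 and 13.8 in the controls and 6.58 and 6.82 in the Qk cKO embryos. Each of the 5 called markers was higher in control 2 than in control 1. Pomc, the highest of the 5, had 1.20 and 3.32 in the controls and 0.439 and 0.435 in the Qk cKO embryos. No marker was called in the lists for intermediate progenitors, neurons, interneurons, choroid plexus, oligodendrocyte lineage, endothelium, microglia, erythroid cells or meninges. The part of these differences in the splicing and levels of the 6 genes was not tested.

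Other members of the same families and complexes, and genes around them, were taken from lists. Of 16 further adhesion G protein-coupled receptors, edgeR's quasi-likelihood test and exact test called 0 and DESeq2 called 1, Celsr1. An unadjusted p-value below 0.05 was found for 5 of them, 4 of these lower in Qk cKO, beside 8.76% of all genes in either direction and 4.43% lower. Celsr1, which acts in planar cell polarity, had an RPKM of 23.1 and 23.4 in the controls and 19.1 and 20.3 in the Qk cKO embryos (log2 fold change -0.23 ± 0.061 SE, FDR 0.159 by edgeR). Bai2, a close relative of Bai1, had 27.6 and 28.8 in the controls and 23.3 and 25.6 in the Qk cKO embryos (log2 fold change -0.19 ± 0.056 SE, FDR 0.204 by edgeR). The median log2 fold change of the 16 receptors was -0.08, beside -0.003 over all genes. None of the 25 tested splicing events of these receptors was called.

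Of 22 ligands and partners of latrophilins and Bai receptors, Odz2 was called. Odz2 is a second teneurin, and its RPKM was 11.1 and 13.5 in the controls and 9.95 and 9.11 in the Qk cKO embryos. The log2 fold change of -0.36 ± 0.073 (SE, FDR 0.0432 by edgeR) was not called after edgeR's filterByExpr, without control 1, without control 2 or without Qk cKO 2. Over the 9 alternatives it ranged from -0.49 to -0.22. The median of the 22 genes was -0.05. Of their 26 tested splicing events 3 were called, beside 7.50% of all tested events, and among these was a 45 nt exon of Nrxn2, which encodes a presynaptic adhesion protein that also binds latrophilins. Its inclusion was 0.314 and 0.415 in the controls and 0.850 and 0.709 in the Qk cKO embryos, so that, as in the 129 nt exon of Lphn2, both Qk cKO values were above both control values.

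Of 22 partners of CP110 at the centriole and in cilium assembly, edgeR's quasi-likelihood test, its exact test and DESeq2 called 0, and 5 had an unadjusted p-value below 0.05, beside 8.76% of all genes. Their median log2 fold change was 0.14. Usp33, a deubiquitinase of CP110, had an RPKM of 38.7 and 35.3 in the controls and 41.0 and 42.5 in the Qk cKO embryos (log2 fold change 0.19 ± 0.057 SE, FDR 0.231 by edgeR). Ccnf, whose product marks CP110 for degradation, had 14.7 and 13.9 in the controls and 16.9 and 15.2 in the Qk cKO embryos (log2 fold change 0.18 ± 0.074 SE, FDR 0.447 by edgeR). In 30 tested splicing events, 1 was called, an exon of Nin with 0.302 and 0.282 in the controls and 0.091 and 0.117 in the Qk cKO embryos. Nin encodes the centrosomal protein ninein.

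Of 19 further genes in a list around the MLL complexes, not all of them subunits, edgeR's quasi-likelihood test, its exact test and DESeq2 called 0. None had an unadjusted p-value below 0.05. The smallest p-values were those of Kdm6a, a histone demethylase that works in the complex of Mll3 (log2 fold change 0.24 ± 0.125 SE, FDR 0.618 by edgeR), and Cxxc1 (-0.09 ± 0.059 SE, FDR 0.736). Kdm6a lies on the X chromosome, and its RPKM was 12.9 and 9.07 in the controls and 14.7 and 11.1 in the Qk cKO embryos, higher in the samples with Xist in both groups. None of the 19 tested splicing events in these genes was called. Of 12 genes in a list around Fam65b, 1 was called. Arhgap11a, a GTPase-activating protein for RhoA, rose from an RPKM of 18.2 and 18.1 in control to 25.3 and 29.0 in Qk cKO (log2 fold change 0.59 ± 0.062 SE, FDR 3.92e-05 by edgeR). It was not called without control 1 or without control 2, fits with a single control sample. Over the 9 alternatives its log2 fold change ranged from 0.50 to 0.68. None of their 6 tested splicing events was called.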

How the data were processed

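The 2 control and 2 Qk cKO libraries of polyadenylated RNA were grouped by the sample labels. Alignment by the authors used OLego, against mm10 together with a database of exon junctions, and quantification used Quantas (versions not given in the sources used here). The authors deposited estimated counts of tags per gene and per splicing isoform, which need not be whole, and RPKM per gene. Assignment of tags is thus part of every value. The labels and the paper's results give 2 replicates, whereas its RNA methods give 3.

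The 6 genes and all lists were chosen with earlier results of these data known. Rounded tags of all genes with at least 1 tag were compared with edgeR 4.0.16 (R 4.3.3, TMM), the standard error being taken from the F statistic, and called at p below 0.01 and FDR below 0.1. Splicing used Fisher's exact test at a coverage of at least 20, adjusted by Benjamini-Hochberg within event type. The alternatives were DESeq2 1.42.0, edgeR's exact test, upper-quartile scaling, filterByExpr, other coverage minima, junction tags alone, an edgeR interaction test, a replicate block and each sample left out. The main edgeR fit, the main Fisher test and the edgeR interaction test were tried on simulated data, and the other alternatives were not. Wilson intervals (95%) cover counting error only. Exon positions and sequences came from GENCODE M21 (GRCm38, the build called mm10), and gene names from RefSeq. Genes named were the 6, Qk, the called genes of each list or else the 2 with the smallest p-value, list genes with a called event of at least 0.1, the 2 most similar events and called markers. Cep110, the 39 nt, 21 nt and 213 nt exons and events near the limits were chosen after their values were seen. A further list gene with a called event is left out of the text and not reported here.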

Additional observations from a re-analysis of the deposited data

How the results depend on the processing

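None of the 6 gene levels was called under any of 9 alternatives. The 8 called splicing events became 3 with edgeR's interaction test of isoform and genotype, which takes the variation between embryos into account and called 0.557% of all tested events. These 3 were the 126 nt exon of Fam65b, the 129 nt exon of Lphn2 and the Lphn2 tandem. With each embryo left out in turn, 5 to 7 events were called, 5 of them without Qk cKO 2. Fisher's test on the remaining tags takes no variation between embryos into account. In the fits of gene levels without 1 embryo, its group has a single sample, assumed to vary like the others.

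Inclusion from all isoform tags, which include those within exons, gave differences of 0.110 for the Lphn2 tandem, 0.173 for Fam65b and -0.133 for Mll3. With each embryo left out, the difference lay between 0.242 and 0.332 for Lphn2, 0.177 and 0.301 for Fam65b, 0.119 and 0.294 for Odz4, 0.062 and 0.203 for Bai1, -0.159 and -0.143 for Mll3, and -0.002 and 0.069 for Cp110. The cause was not tested.

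Of the related genes 2 were called, and 1 after filterByExpr, 0 to 5 with each embryo left out (0 without control 1 or control 2, 5 without Qk cKO 1). Qk, with a log2 fold change of 0.65 ± 0.065 (SE, FDR 2.50e-05 by edgeR), was called in 8 of 9 alternatives. The exception was the fit without control 2, where its log2 fold change was 0.66. Without either control, far fewer genes were called among all genes than in the main fit. A call lost there is thus not particular to Qk, Odz2 or Arhgap11a.

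The labels number the embryos 1 and 2 in both groups. Between same-numbered embryos, deviations from the group mean correlated at 0.38 over 13326 genes, -0.073 over 12825 autosomal genes and 0.011 over 6965 splicing events, so the numbers were not taken as pairs. With the replicate block, 0 of the 6 gene levels and 3 related genes were called, and the Cochran-Mantel-Haenszel test called 8 splicing events. The replicate block lowered the FDR of Mll3 to 0.180 by edgeR.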
